A study of Mus musculus with 8 samples.

Results

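The genes described here are coregulators of the thyroid hormone receptor (TR) and the retinoid X receptors (RXR) with which it pairs: *Ncor1*, *Hdac3*, *Tbl1xr1* and *Gps2* of the nuclear corepressor complex, the p160 coactivators *Ncoa1*, *Ncoa2* and *Ncoa3*, and *Rxra* and *Rxrb*. They were taken by gene symbol, and all 9 were found among the 52325 genes of the deposited counts. RNA-seq had been carried out on endometrium laser-captured from frozen sections of the uterus of female mice in metestrus. The 4 Thra1PV/+ libraries came from knock-in mice heterozygous for the PV mutation of *Thra*, in which the other allele is intact, and the 4 WT libraries came from wild-type mice. The age of the mice behind each library is not given in the sources used here. The labels tell the libraries of a genotype apart by a number alone, so p-values measure the spread between these libraries. Library totals lay between 48791883 and 59819099 estimated counts, and the 9 genes had between 1097 and 7135 counts in each library.

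TR sits on the DNA of its target genes as a pair with RXR. Without hormone the receptor holds a complex built on NCOR1, in which HDAC3 removes acetyl groups from histones and TBL1XR1 and GPS2 are core subunits, and transcription is repressed. Binding of triiodothyronine (T3) releases this complex and recruits the p160 coactivators, which bring in histone acetyltransferases. The PV mutation is a frameshift in the last part of TRα1 that abolishes T3 binding, so the mutant receptor keeps corepressors bound and acts as a dominant negative. The same corepressors, coactivators and RXR also serve other nuclear receptors of the endometrium. Transcript counts show the abundance of coregulator mRNA and not which protein is bound to the receptor.

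The dissected tissue differed between libraries, and several of them stood apart. Markers of simple epithelium were present throughout, with a sum over 8 genes of 1852 to 4378 TPM (the deposited values, scaled for transcript length), led by *Krt19*. Markers of endometrial stroma, 12 genes led by *Col3a1*, summed to 3362, 249.9, 552 and 707 TPM in Thra1PV/+ libraries 1 to 4 and to 2987, 3336, 864 and 1026 TPM in WT libraries 1 to 4. Thra1PV/+ library 1 and WT libraries 1 and 2 therefore held the most stroma transcript. Of the 12 stroma genes, 0 were called by edgeR and 1, *Dcn*, which DESeq2 called, had an unadjusted p under 0.05, with all 12 log2 fold changes below 0. *Dcn* had a log2 fold change of -2.24, and *Hoxa10* (-2.01) and *Hoxa11* (-1.72) followed it in order of p. Leaving out 1 library moved *Hoxa10* to between -3.40 and -1.17 and *Hoxa11* to between -3.07 and -1.18. Smooth muscle markers, 6 genes led by *Acta2*, summed to 7165 TPM in WT library 1 and to 64.6 to 630.1 TPM in the other 7 libraries. All 6 had an unadjusted p under 0.05, lower in Thra1PV/+, and 0 were called. *Actg2*, *Myh11* and *Cnn1* had log2 fold changes of -5.17, -4.60 and -5.30, which rest in part on WT library 1, since without it they were -2.64, -1.93 and -2.28.

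Markers of stratified squamous epithelium, 9 genes led by *Krt5*, summed to 1713, 1930.3, 2082 and 1689 TPM in Thra1PV/+ libraries 1 to 4 and to 0.615, 14.9, 26.1 and 10.2 TPM in WT libraries 1 to 4. *Krt5*, *Krt14*, *Krt15*, *Trp63*, *Ivl*, *Dsg3*, *Pkp1* and *Col17a1*, 8 of the 9, passed both limits of the edgeR test, a 2-fold difference and an adjusted p of 0.1 over 18174 genes, and count as called. In fits without 1 library, *Krt14* and *Dsg3* lost their call in 6 of 8, with log2 fold changes of 6.40 to 7.94 and 4.19 to 5.54 over the 8, and *Krt5* and *Krt15* lost it without WT library 4, at 7.39 and 7.69. With the replicate number as a block, *Krt14*, *Krt15* and *Dsg3* lost their call, at 7.75, 8.68 and 4.99. *Krt14* also lost it with robust dispersion, at 6.76. The log2 fold changes of the called genes other than *Ivl*, which was at or under 2 counts in each WT library, lay between 4.52 (*Dsg3*) and 7.84 (*Krt15*). Squamous epithelium and genotype cannot be told apart in these libraries. Of the marker genes listed, 0 were at 0 TPM in all 8 libraries. In bulk tissue, fewer cells of a type and less RNA per cell cannot be told apart either.

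Of the 9 coregulator and RXR genes, 0 were called between the genotypes in the edgeR test, and 0 by DESeq2. Among all 18174 genes tested, 0.99% were called. An unadjusted p under 0.05 was reached by 3 of the 9 genes in both tests, and by 9.77% of all genes in edgeR. These were *Hdac3*, *Ncoa3* and *Rxra*, and they were also the 3 genes whose Thra1PV/+ libraries did not overlap the WT libraries, 2 of them higher and 1 lower in Thra1PV/+. Which genes these were depended on the scaling, since with library size alone *Hdac3* overlapped and *Rxrb* did not. Among all genes, 6.04% did not overlap, 3.55% with Thra1PV/+ higher and 2.49% with Thra1PV/+ lower. With 9 genes these counts are a description. The median absolute log2 fold change was 0.22 over the 9 genes and 0.24 over all genes, and the 95% intervals of all 9 lay between a 0.621-fold and a 1.75-fold ratio of Thra1PV/+ to WT, inside a fold change of 2 in either direction, as were the intervals of 48.1% of all genes.

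**Figure D1:**
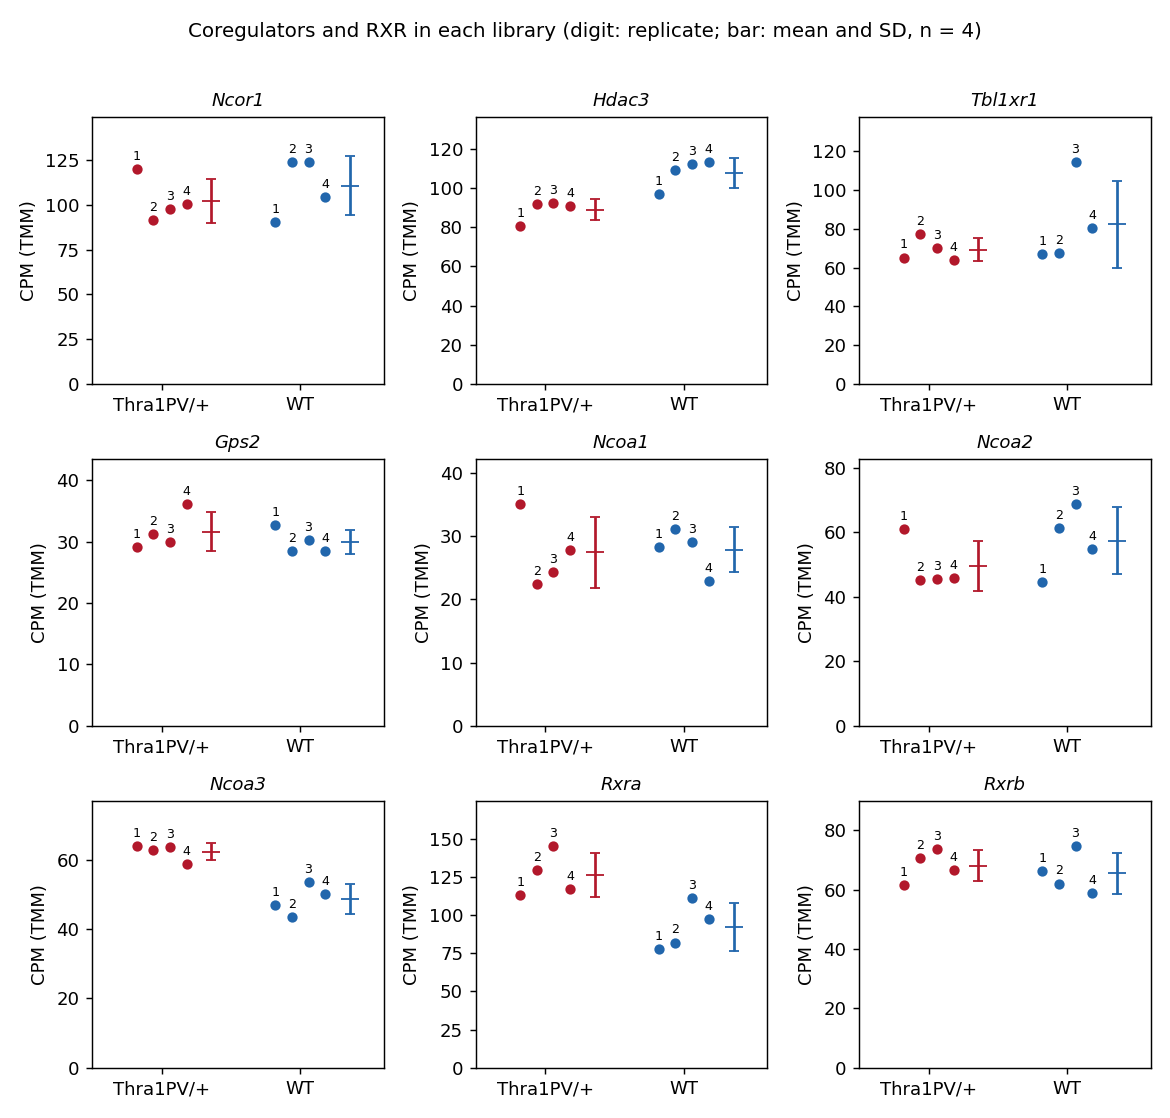
TMM-normalized CPM (counts scaled to a common library size) of the 9 genes in each library, with replicate numbers beside the points and the mean and SD (n = 4) at the right of each genotype. The 4 Thra1PV/+ points lie above the 4 WT points for Rxra and Ncoa3 and below them for Hdac3, and the genotypes overlap for the other 6 genes.

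Levels were compared between genes per length, on the deposited TPM scale. These values had nearly the same distribution in each library, the form that quantile normalization gives, and their order rests on the lengths used for them. *Hdac3* was the most abundant of the 9, at 65.2 ± 8.08 TPM (SD over all 8 libraries), and it was the highest member in 8 of 8 libraries. *Rxrb* (40.7 ± 3.44 TPM), *Ncor1* (39.7 ± 7.57 TPM) and *Gps2* (34.0 ± 4.37 TPM) followed, and their ranges overlapped. *Rxra* had 28.6 ± 5.61 TPM, overlapping *Gps2*, and *Tbl1xr1* had 14.2 ± 2.98 TPM. The p160 coactivators were the lowest, in the order *Ncoa3* (9.98 ± 1.76 TPM), *Ncoa2* (8.16 ± 1.56 TPM) and *Ncoa1* (5.52 ± 0.835 TPM), with overlapping ranges between neighbours. *Ncoa1* was the lowest member in 8 of 8 libraries. The gaps from *Hdac3* to *Rxrb* and from *Rxra* to *Tbl1xr1* were the places in the order where the ranges of neighbours did not overlap.

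The 4 corepressor genes together summed to between 141.9 and 178 TPM in a library, and the 3 p160 genes to between 19.0 and 27.5 TPM. Within a library, the corepressor sum was 5.47 to 6.82 times the p160 sum in Thra1PV/+ and 5.78 to 7.82 times in WT endometrium, and the genotypes overlapped. The 2 RXR genes summed to 69.7, 76.1, 82.0 and 73.2 TPM in Thra1PV/+ libraries 1 to 4 and to 61.9, 60.6, 71.8 and 59.6 TPM in WT libraries 1 to 4. WT library 3 lay within the Thra1PV/+ range. These sums are of mRNA levels and do not give amounts of protein.

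**Figure D2:**
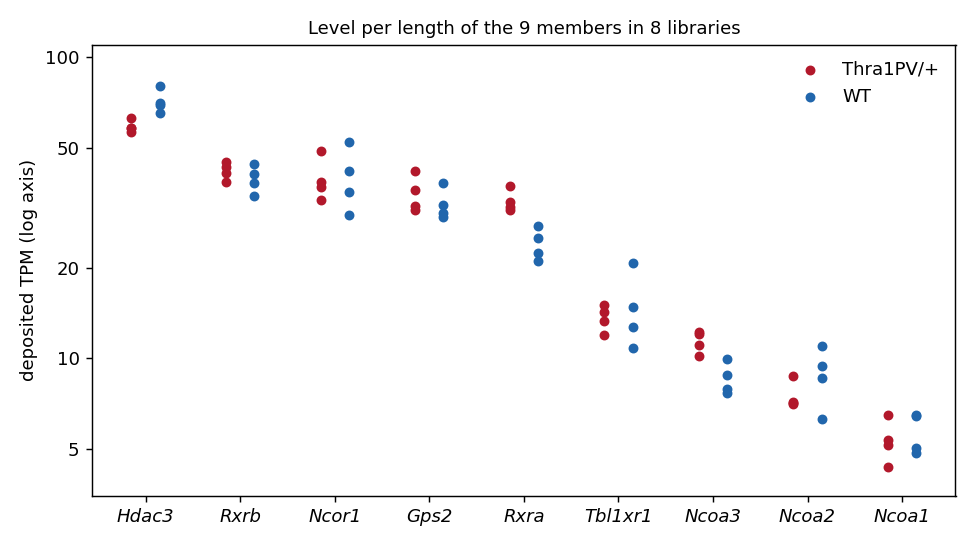
Deposited TPM of the 9 genes in each of the 8 libraries, on a log axis, ordered by the mean over all libraries. Hdac3 lies highest and the p160 genes Ncoa3, Ncoa2 and Ncoa1 lowest in the order.

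*Ncor1* (ENSMUSG00000018501.17, chromosome 11 of GRCm38, 62316426 to 62458541, minus strand) encodes the scaffold of the corepressor complex. It had 119.9, 91.5, 97.5 and 101 CPM in Thra1PV/+ libraries 1 to 4 and 90.7, 124, 124 and 104 CPM in WT libraries 1 to 4. Thra1PV/+ library 1 was high and WT library 1 was low, so the genotypes overlapped. The genotypes differed by a log2 fold change of -0.11 (standard error 0.15, 95% interval -0.46 to 0.23, adjusted p = 0.865, edgeR).

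*Hdac3* (ENSMUSG00000024454.15, chromosome 18, 37935844 to 37955016, minus strand) encodes the histone deacetylase of the complex, whose activity depends on binding to its scaffold. Its level was 80.8, 91.9, 92.7 and 91.0 CPM in Thra1PV/+ libraries 1 to 4 and 96.8, 109, 112 and 114 CPM in WT libraries 1 to 4. Each Thra1PV/+ library lay below each WT library, with library 1 the lowest in both genotypes. The mean was 89.1 ± 5.55 CPM (SD, n = 4) in Thra1PV/+ and 108 ± 7.70 CPM (SD, n = 4) in WT endometrium. The log2 fold change was -0.28 (standard error 0.11, 95% interval -0.53 to -0.03, unadjusted p = 0.0340, adjusted p = 0.458, edgeR), a ratio of 0.825. In fits that left out 1 library the unadjusted p ranged from 0.0412 to 0.153, the highest without Thra1PV/+ library 1, and it was under 0.05 in 9 of 21 alternative fits. The matching counts were 20 of 21 for *Ncoa3* and 19 of 21 for *Rxra*, both described further on.

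*Tbl1xr1* (ENSMUSG00000027630.13, chromosome 3, 22076652 to 22216594, plus strand) and *Gps2* (ENSMUSG00000023170.14, chromosome 11, 69913888 to 69916591, plus strand) encode the other subunits. *Tbl1xr1* had 65.2, 77.1, 70.2 and 64.1 CPM in Thra1PV/+ libraries 1 to 4 and 66.8, 67.3, 115 and 80.4 CPM in WT libraries 1 to 4. WT library 3 stood highest, and 2 of the 4 Thra1PV/+ libraries were below every WT library. Between the genotypes it differed by -0.25 in log2 (standard error 0.19, 95% interval -0.69 to 0.19, adjusted p = 0.736, edgeR), and without WT library 3 it was -0.03. *Gps2* ranged from 29.1 to 36.2 CPM in Thra1PV/+ and from 28.4 to 32.6 CPM in WT endometrium, with a log2 fold change of 0.08 (95% interval -0.20 to 0.35). Without 1 library, *Gps2* ranged from 0.01 to 0.17 and *Ncor1* from -0.15 to -0.02.

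Of the p160 coactivators, *Ncoa3* (ENSMUSG00000027678.17, chromosome 2, 165992636 to 166073242, plus strand), known as SRC-3, is the member amplified in some breast cancers. It had 64.1, 62.7, 63.6 and 58.7 CPM in Thra1PV/+ libraries 1 to 4 and 47.1, 43.5, 53.7 and 50.1 CPM in WT libraries 1 to 4. Each Thra1PV/+ library lay above each WT library, and the Thra1PV/+ libraries lay close together. The mean was 62.3 ± 2.48 CPM (SD, n = 4) in Thra1PV/+ and 48.6 ± 4.35 CPM (SD, n = 4) in WT endometrium. This gave a log2 fold change of 0.36 (standard error 0.11, 95% interval 0.11 to 0.61, unadjusted p = 0.0104, adjusted p = 0.319, edgeR), a ratio of 1.28. The adjusted p was 0.0643 with DESeq2, the lowest over the 21 alternative fits, in which it reached 0.719, and the fold change was below 2 in each of them. The 3′ end of *Ncoa3* overlaps the end of *Sulf2* on the opposite strand, and the libraries were made with a stranded mRNA kit, while the strand setting of Salmon is not given in the sources used here.

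*Ncoa1* (SRC-1; ENSMUSG00000020647.10, chromosome 12, 4247362 to 4477182, minus strand) had 35.2, 22.4, 24.4 and 27.8 CPM in Thra1PV/+ libraries 1 to 4 and 28.3, 31.2, 29.1 and 23.0 CPM in WT libraries 1 to 4. Thra1PV/+ libraries 1 and 2 enclosed the range of all the others. The log2 fold change was -0.02 (95% interval -0.43 to 0.38), and its sign turned under other scalings (0.01 with the upper quartile, 0.06 with library size). *Ncoa2* (SRC-2; ENSMUSG00000005886.14, chromosome 1, 13139105 to 13374083, minus strand) had 61.0, 45.2, 45.4 and 45.8 CPM in Thra1PV/+ libraries 1 to 4 and 44.6, 61.4, 68.8 and 54.6 CPM in WT libraries 1 to 4. Library 1 stood apart as the highest of Thra1PV/+ and was the lowest of WT, and the genotypes overlapped. The log2 fold change was -0.22 (95% interval -0.61 to 0.17, adjusted p = 0.750, edgeR), with a range of -0.29 to -0.10 without 1 library and -0.40 without the libraries highest in stroma markers. On the TPM scale, *Ncoa3* was above *Ncoa2* in 4 of 4 Thra1PV/+ and 2 of 4 WT libraries.

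*Rxra* (ENSMUSG00000015846.14, chromosome 2, 27676440 to 27762957, plus strand) encodes RXRα, which pairs with TR, with the retinoic acid receptors and with other nuclear receptors. It had 113, 129.6, 146 and 117 CPM in Thra1PV/+ libraries 1 to 4 and 77.7, 82.2, 112 and 97.9 CPM in WT libraries 1 to 4. Each Thra1PV/+ library lay above each WT library, and the gap between the nearest ones, Thra1PV/+ library 1 and WT library 3, was narrow. The mean was 127 ± 14.6 CPM (SD, n = 4) in Thra1PV/+ and 92.4 ± 15.5 CPM (SD, n = 4) in WT endometrium. The log2 fold change was 0.45 (standard error 0.15, 95% interval 0.10 to 0.81, unadjusted p = 0.0180, adjusted p = 0.373, edgeR), a ratio of 1.37. This was the largest log2 fold change in size of the 9 genes in the fit of all libraries by genotype alone, but in the 2 fits that take stroma markers into account that of *Tbl1xr1* was larger (-0.43 without the libraries highest in them, -0.41 with the covariate).

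*Rxrb* (ENSMUSG00000039656.16, chromosome 17, 34031812 to 34038399, plus strand) encodes RXRβ, another partner of TR. It had 61.6, 70.5, 73.7 and 66.5 CPM in Thra1PV/+ libraries 1 to 4 and 66.3, 62.0, 74.8 and 58.7 CPM in WT libraries 1 to 4, and the genotypes overlapped. Its log2 fold change was 0.06 (95% interval -0.22 to 0.33, adjusted p = 0.928, edgeR), and 0.01 to 0.15 without 1 library. On the TPM scale *Rxrb* was above *Rxra* in 8 of 8 libraries. The ratio of *Rxra* to *Rxrb* estimated counts within a library, which needs no scaling between libraries and is not per length, was 1.84, 1.84, 1.98 and 1.77 in Thra1PV/+ libraries 1 to 4 and 1.17, 1.32, 1.49 and 1.67 in WT libraries 1 to 4. Each Thra1PV/+ value lay above each WT value. The genotypes did not overlap in *Rxra* alone either, so the ratio is not separate support. On the deposited TPM the ratio was 0.767 to 0.833 in Thra1PV/+ and 0.517 to 0.725 in WT endometrium. No test of the ratio was made.

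The promoter of *Rxra* is shown because this gene had the largest log2 fold change in size of the 9 in the fit by genotype alone. The set of RefSeq promoters used here (GRCm38.p6) holds 9 promoters for 6 of the 9 genes, 2 of them for *Rxra*. This set has no entry for *Hdac3*, *Ncoa2* and *Ncoa3*. The counts per gene do not tell which start was used. The 250 bases before each start of *Rxra*, on the plus strand, are given 5′ to 3′, with capitals marking AGGTCA, the half-site that TR and RXR bind, on either strand.
Rxra start 1, chr2:27676951-27677200: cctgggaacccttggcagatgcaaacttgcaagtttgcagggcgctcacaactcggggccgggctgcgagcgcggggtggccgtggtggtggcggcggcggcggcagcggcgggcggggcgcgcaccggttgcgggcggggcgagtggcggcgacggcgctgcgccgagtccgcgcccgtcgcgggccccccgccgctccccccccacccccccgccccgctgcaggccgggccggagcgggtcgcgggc
Rxra start 2, chr2:27709042-27709291: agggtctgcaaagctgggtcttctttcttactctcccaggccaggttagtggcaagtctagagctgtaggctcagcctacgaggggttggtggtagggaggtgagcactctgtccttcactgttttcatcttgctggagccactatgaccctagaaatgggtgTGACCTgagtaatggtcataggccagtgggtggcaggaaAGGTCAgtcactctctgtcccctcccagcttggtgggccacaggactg
The first holds 0 and the second 2 matches, which begin 87 and 48 bases before the start. Of the 9 promoters of these genes, 1 had a match in its 250 bases. Among 32851 promoters of the same length, 14.0% had at least 1 match and 1.36% had 2 or more. A direct repeat of AGGTCA with 4 bases between was found in 0.0152% of them and in neither *Rxra* promoter. A match is a description of letters and not a bound site.

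**Figure D3:**
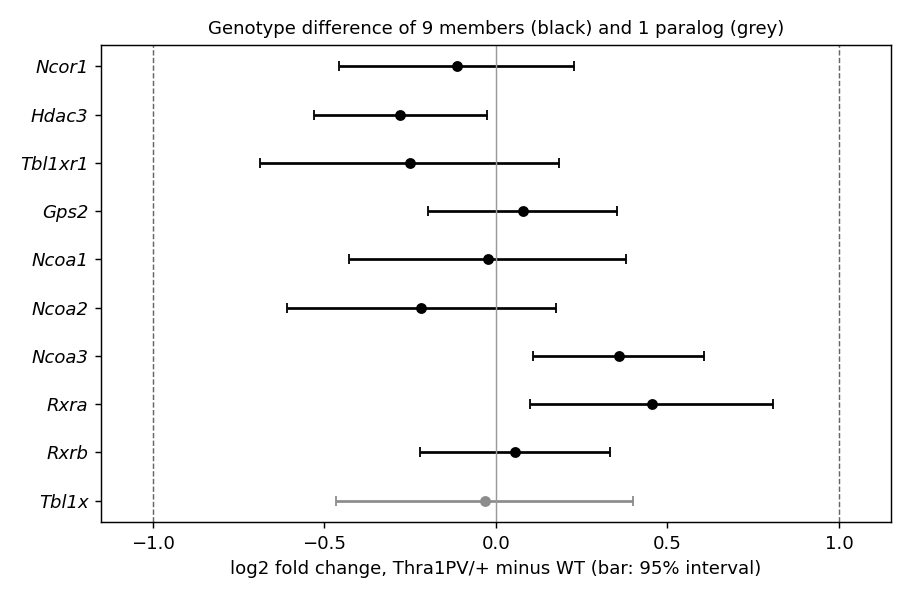
Log2 fold change (Thra1PV/+ minus WT) with its 95% interval (edgeR) for the 9 genes and Tbl1x, a paralog of Tbl1xr1, with dashed lines at a fold change of 2. The intervals of Hdac3, Ncoa3 and Rxra do not include 0, no interval reaches a dashed line, and the signs of Ncoa1 and Tbl1x turn under other scalings.

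Since stroma transcripts differed between the libraries, the 3 genes without overlap were also compared without Thra1PV/+ library 1 and WT libraries 1 and 2, a comparison chosen after the data were seen. *Rxra* then had a log2 fold change of 0.36 (unadjusted p = 0.0595, adjusted p = 0.455, edgeR, where the adjusted p ranged from 0.112 to 0.773 over the alternatives). *Ncoa3* had 0.29 (adjusted p = 0.476, range 0.0643 to 0.719), and *Hdac3* had -0.26 (adjusted p = 0.497, range 0.196 to 0.774). All 3 unadjusted p-values were above 0.05 in this fit of 5 libraries, and of the 9 genes *Ncoa2* alone was under it. In this fit 0 of the 9 genes were called, and of all genes 1.09% were called and 11.7% had an unadjusted p under 0.05. Since the 3 genes were taken for their lack of overlap, their direction in it was given beforehand. With the mean log2 CPM of the stroma markers as a covariate, the log2 fold changes were 0.31 for *Rxra*, 0.32 for *Ncoa3* and -0.35 for *Hdac3*. These 3 and *Tbl1xr1* had an unadjusted p under 0.05 in that fit, as did 15.1% of all genes, and 0 of the 9 genes were called, against 2.11% of all genes. Among the WT libraries, the 2 with the most stroma transcript had the least *Rxra*. Within Thra1PV/+, *Rxra* was highest in library 3, which also had the highest squamous sum. The part of squamous epithelium in these differences was not tested.

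**Figure D4:**
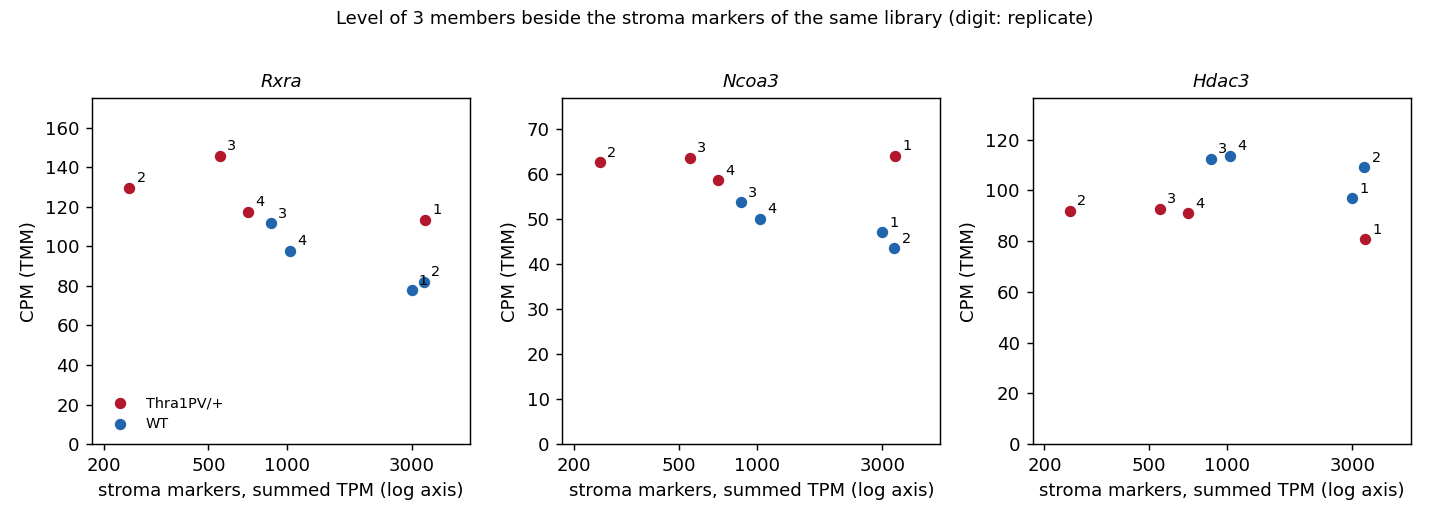
CPM of Rxra, Ncoa3 and Hdac3 in each library against the summed TPM of 12 stroma markers in the same library, on a log axis, with replicate numbers beside the points. Thra1PV/+ library 1 and WT libraries 1 and 2 lie at the right, with the lowest Rxra of their genotypes.

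*Tbl1x* encodes a paralog of TBL1XR1 that can take its place in the complex. It had 167 CPM in Thra1PV/+ library 1 and 95.4 to 129.9 CPM in the other 7 libraries, with a log2 fold change of -0.03 whose sign turned under other scalings (0.06 with library size). *Tbl1x* was above *Tbl1xr1* on the TPM scale in 8 of 8 libraries. *Rxrg*, which encodes the remaining RXR, had between 2 and 23 counts in a library and was not tested.

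Of 15 other corepressors and deacetylases, 0 were called and 0 had an unadjusted p under 0.05, and their median log2 fold change was -0.02 where that of all genes was -0.05. The lowest p-values in this list were those of *Hdac2*, *Coro2a* and *Hdac7*, with log2 fold changes of -0.30, -0.67 and -0.39. In fits without 1 library *Coro2a*, lowest of WT in WT library 1, ranged from -0.88 to -0.48. Its unadjusted p ranged from 0.00160 to 0.217 in them (edgeR), and its adjusted p from 0.132 to 0.860. The log2 fold change of *Hdac7* was -0.12 without WT library 3, which stood highest. Each Thra1PV/+ library lay below each WT library for *Hdac7*, and 6.04% of all genes did not overlap in either direction. *Hdac2* was also the most abundant of the list, at 89.1 TPM over all libraries. Of 17 other coactivators, led in abundance by the arginine methyltransferase gene *Prmt1* (150.2 TPM), 0 were called by edgeR and 1 had an unadjusted p under 0.05. This was *Ppargc1a*, which encodes PGC-1α, a coactivator of mitochondrial gene expression. It had 4.83, 2.90, 4.05 and 5.50 CPM in Thra1PV/+ libraries 1 to 4 and 11.2, 12.4, 13.6 and 6.26 CPM in WT libraries 1 to 4, so each Thra1PV/+ library lay below each WT library. With this gap the log2 fold change was -1.33 (standard error 0.32, unadjusted p = 0.00266, adjusted p = 0.170, edgeR). DESeq2 called it, with an adjusted p of 0.00406, the lowest over 21 alternative fits in which it reached 0.494. *Kat2b* and *Ep300*, which encode histone acetyltransferases, followed with log2 fold changes of -0.40 and 0.11. That of *Kat2b* was -0.11 without WT library 3, which stood highest.

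The mediator complex links receptor-bound coactivators to RNA polymerase II. Of 30 mediator genes, led in abundance by *Med28* (148 TPM), 0 were called and 2 (6.67%) had an unadjusted p under 0.05, both lower in Thra1PV/+, where 9.77% of all genes did. These were *Med9* (log2 fold change -0.43, adjusted p = 0.315) and *Med11* (-0.35, adjusted p = 0.363, both, edgeR), and their libraries did not overlap between the genotypes, as those of 6.04% of all genes did not. *Med15* followed at 0.24. The median of the list was -0.06.

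Nuclear receptors that pair with RXR compete for the same partner. *Thra* itself, given here as the mutated gene and not by the rule for named genes, had 127, 45.8, 67.8 and 80.0 CPM in Thra1PV/+ libraries 1 to 4 and 109.98, 104, 50.3 and 47.4 CPM in WT libraries 1 to 4. It was highest in the 3 libraries with the most stroma transcript, and the counts do not tell the PV allele from the WT allele. Of 16 listed receptors, led in abundance by *Nr1h2* (76.3 TPM), 13 could be tested and 0 were called. An unadjusted p under 0.05 in edgeR was reached by 3 (23.1%), where 9.77% of all genes reached it. *Rarg*, a retinoic acid receptor, had 129, 128, 130.2 and 123 CPM in Thra1PV/+ libraries 1 to 4 and 63.2, 83.1, 107 and 73.0 CPM in WT libraries 1 to 4. Each Thra1PV/+ library lay above each WT library, and the difference in log2 was 0.64 (standard error 0.17, adjusted p = 0.223, edgeR). *Vdr*, the vitamin D receptor, was low, at 6.10 to 8.34 CPM in Thra1PV/+ and 1.66 to 5.93 CPM in WT endometrium, with a log2 fold change of 1.01 (adjusted p = 0.451 in the same test). *Thrb* had a log2 fold change of -0.99 (adjusted p = 0.413 in the same test), with 2 of 4 Thra1PV/+ libraries below all WT libraries. The list had a median of 0.04.

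Of 16 genes that respond to thyroid hormone in other tissues, 0 were called by edgeR. An unadjusted p under 0.05 in edgeR was reached by 4 (25%), where 9.77% of all genes reached it. Of these 4, 3 were lower and 1 was higher in Thra1PV/+. Over the list, 7 log2 fold changes were above 0 and 9 below, with a median of -0.17. Over all genes tested, 7843 were above 0 and 10331 below, with a median of -0.05. The higher gene was *Cdkn1a* (1.41, adjusted p = 0.509, edgeR), which is outside the rule for named genes and is named after its values were seen. *Dio3*, which encodes the deiodinase that inactivates T3, had 0.26 to 0.44 CPM in Thra1PV/+ and 0.51 to 3.60 CPM in WT endometrium, with a log2 fold change of -2.70 (adjusted p = 0.127, edgeR). *Klf9*, a T3-responsive transcription factor gene, had 16.1, 3.59, 5.62 and 4.22 CPM in Thra1PV/+ libraries 1 to 4 and 54.1, 38.5, 10.7 and 17.1 CPM in WT libraries 1 to 4. It was highest in library 1 of both genotypes, where stroma transcript was high, and the log2 fold change was -2.02 (adjusted p = 0.351 in the same test). *Dio1* had a log2 fold change of -1.63 (adjusted p = 0.373 in the same test). DESeq2 called *Dio3*, *Klf9* and *Dio1*. Without the 3 libraries highest in stroma markers, the log2 fold changes were -3.05 for *Dio3*, which was then called (adjusted p = 0.0456, edgeR, with a range of 0.000436 to 0.365 over 21 alternatives), -1.60 for *Klf9* and -2.15 for *Dio1*, which were not. *Dio3* was also called without WT library 2 alone (-3.01), the WT library lowest in it and 1 of the 3 left out. With the stroma covariate the values were -3.00 for *Dio3*, which was called, -1.14 for *Klf9* and -1.61 for *Dio1*.

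Among the markers of other cell types, of 8 simple epithelium genes, 0 were called and 0 had an unadjusted p under 0.05, and *Cldn3*, *Krt7* and *Krt18* had the lowest p-values, with log2 fold changes of -0.54, 0.55 and -0.26. Without 1 library these ranged from -0.69 to -0.28, from 0.38 to 0.92 and from -0.41 to 0.01. Of 6 genes listed for uterine glands, led by *Ltf*, 3 could be tested and 0 were called. Their log2 fold changes were 0.27 for *Foxa2*, -0.69 for *Cxcl15* and 0.07 for *Ltf*. The gland content of these libraries was not tested. Of 5 endothelium genes, led by *Emcn*, 0 were called, and *Tek*, *Pecam1* and *Emcn* had log2 fold changes of -1.84, -0.39 and -0.31. WT library 1 was the highest for *Tek*, and without it the value was -0.50. *Pecam1* ranged from -0.63 to -0.15 and *Emcn* from -0.66 to 0.00 without 1 library. Of 6 leukocyte genes, led by *Lyz2*, 0 were called by edgeR and 1 (*Cd79a*) was called by DESeq2. In edgeR 2 had an unadjusted p under 0.05, *Cd79a* (2.58) and *Cd3e* (1.73), with *Ptprc* next (0.50). *Cd79a* was near the floor in WT endometrium, at 1 to 18 counts in a library. The leukocyte sum was 732, 139.5, 306 and 248 TPM in Thra1PV/+ libraries 1 to 4 and 308, 313, 185 and 251 TPM in WT libraries 1 to 4.

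How the genes vary among libraries of 1 genotype was described by the Pearson correlation of log2 CPM after the genotype means were taken away, over 8 libraries and with no test. Of the 36 pairs among the 9 genes, the 3 largest in size were *Ncor1* with *Ncoa2* (r = 0.957, Spearman's rho = 0.905), *Tbl1xr1* with *Rxra* (r = 0.854, rho = 0.905) and *Tbl1xr1* with *Ncoa3* (r = 0.825, rho = 0.714). Without the 2 libraries farthest from the median of the first gene, r was 0.895, 0.686 and 0.739. The most negative r of the 36 was that of *Hdac3* with *Ncoa1* (r = -0.625, rho = -0.476, and -0.682 without the 2 farthest libraries). The libraries also differed in stroma and muscle transcript, and the part of this in the correlations was not tested.

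**Figure D5:**
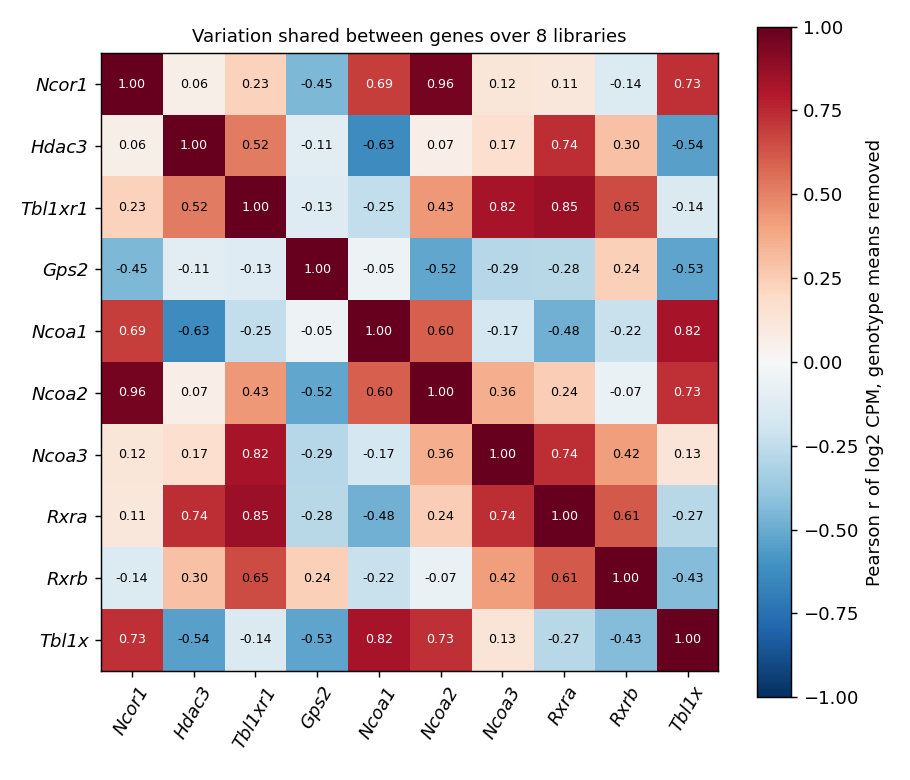
Pearson correlation of log2 CPM, with genotype means taken away, between the 9 genes and the paralog Tbl1x over 8 libraries. Ncor1 and Ncoa2 form the reddest pair of different genes, and Hdac3 and Ncoa1 the bluest.

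Over 12131 other genes, each with mean log2 CPM no lower than 2, the 4 whose pattern over the 8 libraries was most like *Ncor1* were *Mastl* (r = 0.992), *Tbc1d4* (0.986), *Dpy19l4* (0.985) and *Zfp97* (0.984). For *Ncoa1* they were *Smg6* (0.995), *Angel2* (0.991), *Hace1* (0.989) and *Cyp2j9* (0.989). For *Rxra* they were *Pwwp2b* (0.998), *Sephs2* (0.988), *Carhsp1* (0.988) and *Pdcd7* (0.985). An r above 0.9 was reached by 122, 141 and 490 genes for *Ncor1*, *Ncoa1* and *Rxra*. Likeness over 8 libraries does not show a shared function.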

How the data were processed

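RNA-seq libraries of laser-captured endometrium were taken from 4 Thra1PV/+ and 4 WT mice, numbered 1 to 4 by the labels. In the authors' processing, Trimmomatic was used for trimming and Salmon for quantification, with mm10 as the genome. The versions and annotation release are not given in the sources used here. Deposited by the authors were a table of unnormalized estimated counts (52325 genes, of which 52220 had a symbol in the reference table) and a table of TPM. The sorted TPM values differed by at most 0.291 between libraries, the form that quantile normalization gives. A TPM column that matched no sample was not used. Identifiers without a symbol held at most 0.00897% of a library's counts.

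Estimated counts were rounded, filtered with filterByExpr (minimum count 10, minimum total 15), normalized by TMM and tested with edgeR 4.0.16 quasi-likelihood in R 4.3.3, with genotype as the only term and Benjamini-Hochberg adjustment over 18174 genes. Calls needed both a 2-fold difference and an adjusted p no higher than 0.1. Standard errors come from the F statistic, 95% intervals from the t distribution, and log2 CPM used a prior count of 2. CPM are counts scaled by library size and TMM factor. The test was checked on simulated data. DESeq2 1.42.0, limma 3.58.1, other scalings, filters and thresholds, the replicate number as a block and each library left out were alternatives. Fits without the libraries highest in stroma markers, or with stroma as a covariate, and the counts of genes without overlap were added after the data were seen.

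Named genes are the 9 members, their paralogs, the called genes of each other list or else up to 3 with the lowest p, the most abundant gene of each list, and the 4 genes most like *Ncor1*, *Ncoa1* and *Rxra*. Not every gene that meets this rule is named. The lists cover paralogs, corepressors, coactivators, mediator, receptors that pair with RXR, thyroid hormone responsive genes and 7 cell types. The members and lists were chosen with earlier results of these data known. Positions are from GENCODE M21 (GRCm38), and promoters from RefSeq (GRCm38.p6). The identifiers printed are those of the counts. In GENCODE M21, *Hdac3* and *Rxrb* have other versions, ENSMUSG00000024454.16 and ENSMUSG00000039656.17, and their positions are of these.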

Additional observations from a re-analysis of the deposited data

Results flagged for a closer look

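In 104 groups of 4 libraries, the log2 CPM of a gene was searched for 1 library lying apart, by the ratio of its distance from the closest library to the spread of all 4. The ratio passed its 95% critical value in 11 groups, where chance flags about 1 in 20, or 5.2. Causes were not tested.

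Of the 9 genes, *Hdac3* in Thra1PV/+ library 1 was low (log2 CPM 6.34, others 6.51 to 6.54, ratio 0.862), and *Ncoa2* in the same library was high (5.93, others 5.50 to 5.52, ratio 0.955). That library also held the most stroma transcript of its genotype. *Cldn3* was low there too (7.05, others 8.06 to 8.20, ratio 0.874).

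In WT library 3, *Hdac7* (7.29, others 6.42 to 6.52, ratio 0.887) and *Kat2b* (6.10, others 5.17 to 5.30, ratio 0.857) were high and *Cd79a* was low (-4.10, others -1.61 to -1.39, ratio 0.918). In WT library 1, *Myh11* was high (10.78, others 6.07 to 6.66, ratio 0.875) and *Pkp1* was low (-4.12, others 0.25 to 0.71, ratio 0.906). The low values of *Cd79a* and *Pkp1* stand for 1 count each, near the floor set by the prior count.

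In Thra1PV/+ library 2, *Vdr* was high (3.07, others 2.62 to 2.69, ratio 0.849) and *Cd3e* was low (-1.04, others 1.52 to 1.99, ratio 0.844). In Thra1PV/+ library 3, *Col17a1* was high (7.79, others 7.33 to 7.39, ratio 0.871).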

How the results depend on the processing

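The number of members called was 0 in each of the 21 alternative fits and under each other threshold. The number with an unadjusted p under 0.05 was 3, and in fits without 1 library it ranged from 1 (*Ncoa3*, without Thra1PV/+ library 3) to 3. It was 1 without the 3 libraries highest in stroma markers, where *Ncoa2* alone passed, and 6 genes then showed no overlap in place of 3, where 28.9% of all genes did so with 3 Thra1PV/+ and 2 WT libraries left. With library size alone 5.99% of all genes and 3 members showed none, with *Rxrb* in place of *Hdac3*. It was 4 with the stroma covariate, which added *Tbl1xr1*. Ordered by CPM, which is not per length, 1 of the 9 genes kept its place in the TPM order.

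The number of all genes called was 180 (168 higher). It was 791 (568 higher) with DESeq2, 311 (253 higher) with limma voom and quality weights, 384 (289 higher) with the stroma covariate, 81 with at least 10 counts in every library, 119 at an adjusted p of 0.05, and 81 to 167 in fits without 1 library. The cause was not tested. With the replicate number as a block it was 82, 0 members were called, and 2 had an unadjusted p under 0.05. *Krt14*, *Krt15* and *Dsg3* lost their call. With genotype means taken away, same-numbered libraries had correlations of 0.269, -0.436, 0.340 and -0.159. Whether same-numbered libraries share a batch or a litter was not tested, and these values cannot decide it.

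Of 189 log2 fold changes of the members under alternatives, 178 kept their direction and their side of the threshold and 11 turned, all near 0 and with the cause not tested. *Ncoa1* (-0.02) turned to 0.00 (0.0026) with DESeq2, 0.0113 with the upper quartile, 0.0615 with library size, 0.0001 with at least 1 count in any library, 0.1325 with the stroma covariate, and -0.12 to 0.0643 without 1 library. *Rxrb* turned to -0.0203 with the stroma covariate. Among other named genes 28 of 897 turned. *Tbl1x* was 0.0031 with the upper quartile, 0.0573 with library size, 0.0050 and 0.0038 on log2 TPM, 0.1177 with the stroma covariate, and -0.20 to 0.0566 without 1 library. *Krt18* was -0.41 to 0.0098 and *Foxa2* -0.05 to 0.50 without 1 library. *Cxcl15* was 0.2138 with the block, 0.3288 with voom, 0.3843 and 0.8506 on log2 TPM, 0.7373 without the libraries highest in stroma markers, 0.6957 with the covariate, and -1.09 to 0.0566 without 1 library. *Ltf* was -0.4796 and -0.3797 in the same 2 stroma fits and -0.24 to 0.67 without 1 library. *Pecam1* was 0.1220 with the covariate. *Emcn* was 0.3438 and 0.6133 in the stroma fits and -0.66 to 0.00 (0.0043) without 1 library. *Krt14* lost its call with robust dispersion (adjusted p = 0.1015, edgeR). *Krt14* and *Dsg3* each lost their call without 1 library in 6 fits, and *Krt5* and *Krt15* without WT library 4 (adjusted p = 0.115 for both, edgeR).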
